A study of Mus musculus with 24 samples.

Results

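Lipoprotein lipase and 6 genes that regulate it or act beside it were followed in subcutaneous white adipose tissue (sWAT) of mice with and without GDF15, a hormone that cells secrete under stress. The set was chosen by gene symbol and held Lpl, Lmf1, Sel1l, Gpihbp1, Angptl4, Angptl8 and Vldlr. These were 7 of the 19175 genes in the table, and all 7 were among the 14982 genes with enough counts to be tested. RNA was sequenced from 24 mice, with 6 WT and 6 Gdf15-KO mice of each sex. The Gdf15-KO mice lacked Gdf15 in the whole body from the germ line on, on a C57BL/6/129/SvJ background, and the WT mice were littermates from crosses of heterozygous parents. Every mouse was 20 weeks old, ate standard chow ad libitum and was killed in the fed state at lights off, so no group had been fasted or given a drug. Because the deletion was present in every cell from birth, an effect within fat cannot be told apart from one that reached fat from another organ.

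LPL is the enzyme that splits the triglycerides of circulating chylomicrons and very low density lipoproteins, and so lets a tissue take up their fatty acids. Adipocytes make it, the proteins LMF1 and SEL1L help it to fold and leave the endoplasmic reticulum, and GPIHBP1 on capillary endothelium carries it to the vessel lumen. ANGPTL4 inactivates it in fasted fat, and ANGPTL8, which insulin and feeding induce in fat and liver, modulates ANGPTL4.

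Stretches upstream of the start site are shown for the member whose level varied most between mice and for the steadiest one, since these lie at opposite ends of the set. Of the 7 members, 4 (Angptl8, Sel1l, Lmf1 and Vldlr) had an entry in the RefSeq promoter table used here, and Lpl, Gpihbp1 and Angptl4 had none. The bases below come from RefSeq, were matched to GRCm39, run 5′ to 3′ on the strand of the gene and end at the last base before the annotated start. The Angptl8 stretch is chr9:21746556-21746785 on the plus strand (230 bases), with the motif GGTCAA in capitals. The Sel1l stretch is chr12:91815983-91816181 on the minus strand (199 bases), with the motif CCAAT in capitals, and on either strand in both.
Angptl8: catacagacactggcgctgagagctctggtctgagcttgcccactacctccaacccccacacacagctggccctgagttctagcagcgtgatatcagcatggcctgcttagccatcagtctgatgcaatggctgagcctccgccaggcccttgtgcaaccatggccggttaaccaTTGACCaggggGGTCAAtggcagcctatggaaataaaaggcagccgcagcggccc
Sel1l: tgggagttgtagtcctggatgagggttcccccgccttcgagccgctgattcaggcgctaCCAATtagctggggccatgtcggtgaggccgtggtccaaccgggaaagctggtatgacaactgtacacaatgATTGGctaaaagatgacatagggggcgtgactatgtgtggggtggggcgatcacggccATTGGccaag
The Angptl8 stretch held GGTCAA 2 times, on opposite strands and pointing away from each other. This motif was picked after the sequence had been read, and 6.76% of 32851 promoter stretches of the same length held it at least once, and 0.256% held it 2 or more times. The Sel1l stretch held CCAAT 3 times, against 28.2% of promoters with at least 1 and 1.61% with 3 or more. Neither stretch held the TATA box motif TATAAA, the GC box motif GGGCGG or the E-box motif CACGTG, which 11.8%, 29.8% and 5.35% of promoter stretches of the Angptl8 length held on either strand. A match is a description of the letters and not a sign that a factor binds there.

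The libraries held 22521358 to 24500575 expected counts each and 0 of 276 pairs of libraries were identical. Gdf15 itself had 7 to 17 counts in female WT and 14 to 31 in male WT mice, against 0 to 1 and 0 to 2 in the Gdf15-KO groups, so every library matched its genotype label. All 8 adipocyte markers were detected in every group, with a median summed level of 10937 to 15746 CPM (counts scaled to library size, with TMM scaling between libraries). Skeletal muscle markers ranged from 20.8 to 33988 CPM between mice, and mammary and epithelial markers from 795 to 1999 CPM in females against 4.66 to 19.0 CPM in males. In whole tissue, fewer cells of one type and less RNA per cell cannot be told apart. Neither the labels nor the methods give a litter, cage or sequencing batch for single mice.

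Lpl was by far the most abundant member. It took 0.353% to 0.658% of the counts of a library on average, depending on the group. Levels of different genes can be compared only per length, here as CPM per kb of annotated exons. On that scale the mean of Lpl was 424 in female WT, 274 in female Gdf15-KO, 559 in male WT and 344 in male Gdf15-KO mice. Lmf1 stood at the bottom with 0.971 to 1.05 CPM per kb. In all 4 groups Lpl was first and Lmf1 last, and no mouse overlapped with the neighbouring gene at either end. Between them Angptl4, Angptl8, Sel1l, Gpihbp1 and Vldlr had means of 8.39 to 47.5 CPM per kb. The mice of neighbouring genes in this middle range overlapped in every group, except that Gpihbp1 stood above Sel1l in male WT mice. These levels depend on the length used. Per kb of the longest annotated transcript, Lpl had means of 1203 in female WT and 778 in female Gdf15-KO mice. In male WT and Gdf15-KO mice they were 1587 and 977, and Lmf1 had 3.34 to 3.62.

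**Figure D1:**
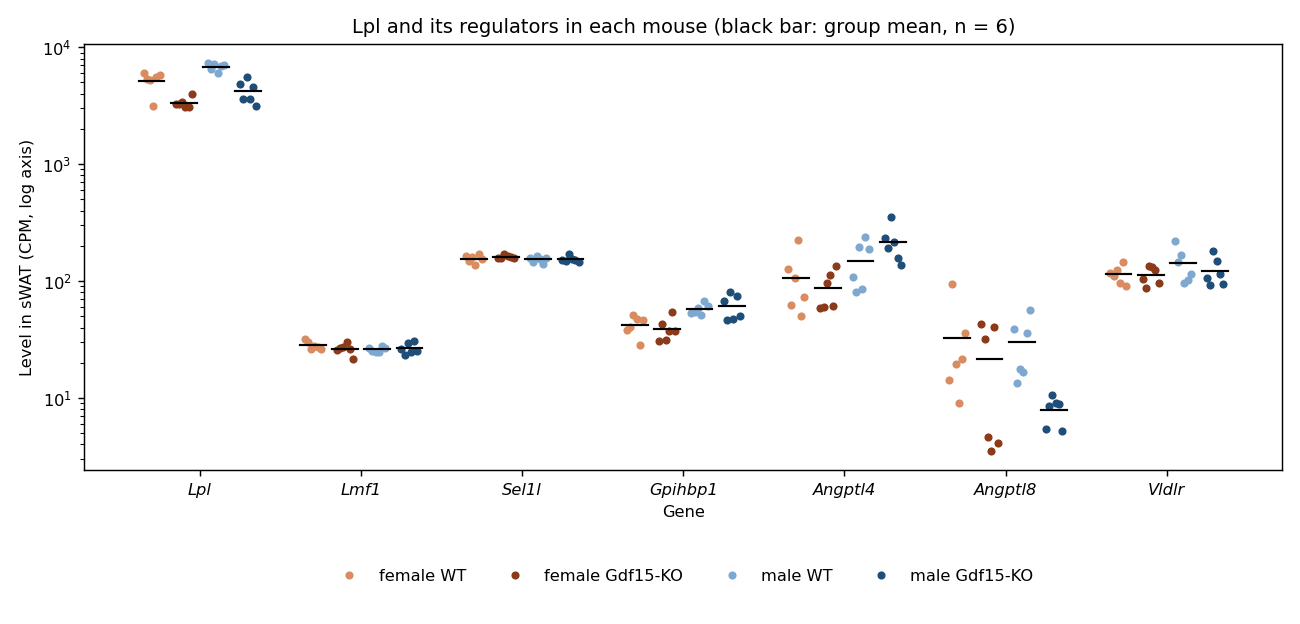
Level of each member in each mouse (CPM, log axis, 1 point a mouse, black bar the mean of 6 mice), by group. Lpl sits at 3051 to 7271 CPM and is lower in both Gdf15-KO groups, Sel1l stays between 137 and 171 CPM, and Angptl8 spreads from 3.52 to 93.5 CPM.

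Lpl was lower in Gdf15-KO than in WT mice of both sexes. In female WT mice Lpl ran from 3116 to 5958 CPM with a median of 5469 CPM, and in female Gdf15-KO mice from 3051 to 3977 CPM with a median of 3289 CPM. In male WT mice it ran from 6017 to 7271 CPM (median 7018), and in male Gdf15-KO mice from 3150 to 5553 CPM (median 4086). Every male Gdf15-KO mouse was below every male WT mouse. In females 5 WT mice stood at 5290 CPM or more, above all Gdf15-KO mice, and female WT replicate 4 alone lay within the Gdf15-KO range at 3116 CPM. The group means were 5180 ± 1041 and 3354 ± 333 CPM in female WT and Gdf15-KO mice, and 6835 ± 474 and 4210 ± 912 CPM in male WT and Gdf15-KO mice (SD, n = 6 each).

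Averaged over the sexes, Lpl fell by 36.9% in edgeR's quasi-likelihood test, a log2 fold change of -0.66 (SE 0.10, 95% interval -0.87 to -0.46, adjusted p = 0.000487). It was the only one of the 7 members called in this comparison, where 0.414% of all tested genes were called at an adjusted p under 0.05 and 0.38% were called lower. In males Lpl fell by 38.4% (log2 -0.70, SE 0.14, interval -0.99 to -0.41, adjusted p = 0.0288), again the only member called, against 0.2% of all tested genes. It was also 1 of 2 members whose male groups did not overlap, the other being Angptl8, against 0.481% of all tested genes. In females the log2 fold change was -0.63 (SE 0.14, interval -0.92 to -0.33), but its adjusted p of 0.0858 (unadjusted 0.000189) missed the threshold, and edgeR called 0 of 7 members, against 0.194% of all genes. DESeq2 called 1 member in females, Lpl, and limma-voom called 0. The difference between the sexes in the Lpl effect was 0.07 (interval -0.34 to 0.48, adjusted p = 0.998). No member and no gene was called for that difference in edgeR, in DESeq2 or in limma-voom, while in edgeR 522 genes (3.48%) had an unadjusted p under 0.05.

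Within each sex the call for Lpl turned on single mice. Without female WT replicate 4 the female Lpl value was -0.74 and was called (adjusted p = 0.00193). That mouse also had the lowest adipocyte score of its group (the mean log2 CPM of the 8 markers), 8.81 against 9.34 to 9.62 in the other female WT mice, and the highest mammary and epithelial score, 7.38 against 6.32 to 6.47. Their part in its low Lpl was not tested mouse by mouse, but with the adipocyte score as a covariate the female Lpl value was -0.51 (adjusted p = 0.0189). The male call for Lpl was lost without male WT replicate 1, 2, 3, 5 or 6, or without Gdf15-KO replicate 14, 16, 17 or 18, with adjusted p between 0.0509 and 0.126 and log2 values from -0.72 to -0.62. It was also lost with males fitted alone in edgeR (-0.70, adjusted p = 0.074). For the average over the sexes, Lpl was called without each of the 24 mice (-0.72 to -0.62, adjusted p up to 0.00172) and under each of the 12 other alternatives (-0.73 to -0.60).

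Within the male Gdf15-KO group Lpl was split, with replicates 13, 15 and 17 at 4562 to 5553 CPM and replicates 14, 16 and 18 at 3150 to 3609 CPM. The same 3 mice that were high in Lpl had the highest adipocyte scores of that group (9.78 to 9.92 against 9.26 to 9.46) and the highest Gpihbp1 (67.7 to 80.4 against 46.3 to 50.7 CPM). Across groups, 0 of 8 adipocyte markers were called in any Gdf15-KO against WT comparison.

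Other markers were also followed by genotype. The 5 brown adipocyte markers (Ucp1, Cidea, Elovl3, Dio2 and Cox8b) had a summed level of 41.9 to 92.6 CPM in female WT and 16.1 to 50.6 CPM in female Gdf15-KO mice, and of 59.0 to 197 CPM in male WT and 54.2 to 101 CPM in male Gdf15-KO mice. All 5 had negative values in both sexes, and 1 of 5, the lipid droplet gene Cidea, passed the test averaged over the sexes (log2 -0.997, adjusted p = 0.00109) and in females (-1.18, adjusted p = 0.0194), while 0 of 5 passed in males. The other 4 had adjusted p from 0.101 to 0.599 on average. Of the 10 mammary and epithelial markers 0 were called in edgeR in either sex or on average. All 10 had negative averaged values (median log2 -0.97, or -0.28 in females and -1.56 in males). On average 6 of 10 had an unadjusted p under 0.05, against 12.6% of all tested genes. In males these markers summed to only 4.66 to 19.0 CPM. Male WT replicates 3, 4 and 6 had mammary and epithelial scores of 0.50 to 0.71, and replicates 1, 2 and 5 had -1.82 to -1.43. The scores of male Gdf15-KO mice were -1.72 to -0.96. All 5 erythrocyte markers were negative in females (median -0.74), against a median of -0.02 in males. In females each had an unadjusted p under 0.05, as did 10.9% of all tested genes, and 0 were called. Skeletal muscle markers were negative for 7 of 9 in females (median -0.44) and 8 of 9 in males (median -1.09). Of these 9, 0 were called and 0 had an unadjusted p under 0.05 in either sex or on average. The part of these cells in the Lpl difference was not tested.

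**Figure D2:**
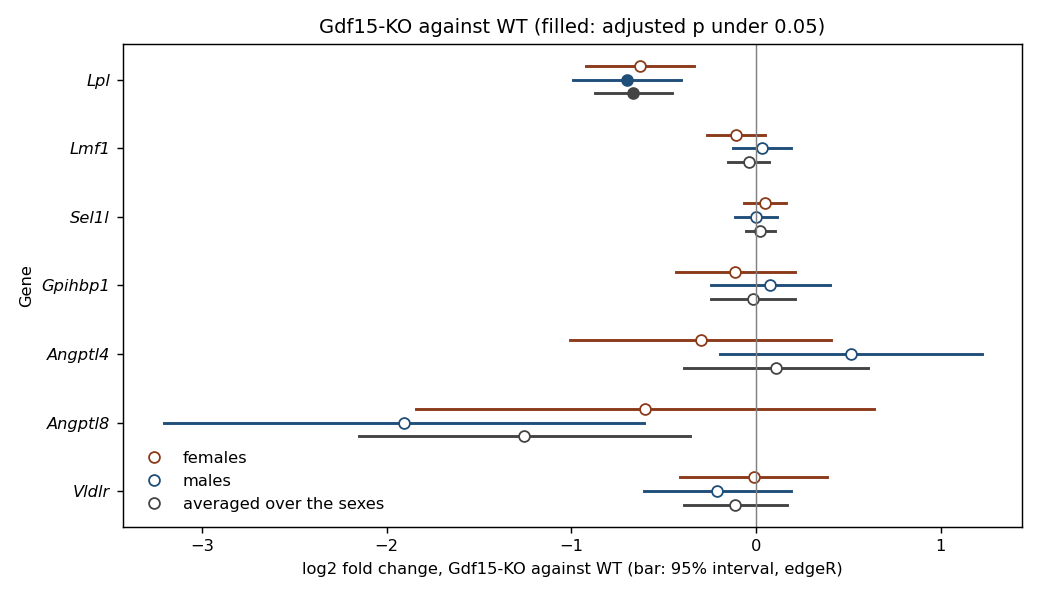
Log2 fold change of each member in Gdf15-KO against WT mice (point) with its 95% interval from edgeR (bar), in females, in males and averaged over the sexes, where a filled point has an adjusted p under 0.05. Lpl lies at -0.70 to -0.63 in all 3 comparisons with filled points for males and the average. Angptl8 is lower with wide intervals, of which the female one includes 0, and the other 5 members have intervals that include 0.

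The position of Lpl bears on how this difference can be read. Lpl lies on chromosome 8 of GRCm39 from 69284603 to 69360100 on the plus strand, 1.722 Mb from the deleted Gdf15 gene (71082038 to 71091537), and is the only member on that chromosome. Of the 21 other tested genes within 1 Mb of Lpl, 9 (42.9%) were called averaged over the sexes, 8 of them lower, as were 5 (23.8%) in females and 6 (28.6%) in males. Among the other 14729 tested genes, those not placed within 20 Mb of Gdf15, 0.122% were called averaged over the sexes, and 0.00679% in either sex. Called genes around Gdf15 ended 1.82 Mb away on the side of Lpl, with Ints10, and 2.32 Mb away on the other, with Nwd1. Lpl was thus the last called gene but one on its side.

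The genes beside Lpl differed by more and by less than Lpl itself. Ints10, which starts upstream of Lpl and encodes a subunit of the Integrator complex, fell in males (log2 -0.29, adjusted p = 0.0298) and averaged over the sexes (-0.25, adjusted p = 0.00242). On the other side, Slc18a1, a vesicular monoamine transporter, fell in both sexes (log2 -2.34 in females and -3.05 in males). Atp6v1b2, a subunit of the vacuolar proton pump, also fell in both (-0.44 and -0.49), as did Zfp869, a zinc finger gene (-0.49 and -0.62), and Lpar2, a receptor of lysophosphatidic acid (-1.15 and -1.89). Zfp868, another zinc finger gene, rose by 1.19 in females and 1.25 in males. In this design the absence of Gdf15 and whatever sequence was carried along with the deleted locus cannot be told apart as sources of the Lpl difference. The other 6 members lie on chromosomes 9, 12, 15, 17 and 19.

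**Figure D3:**
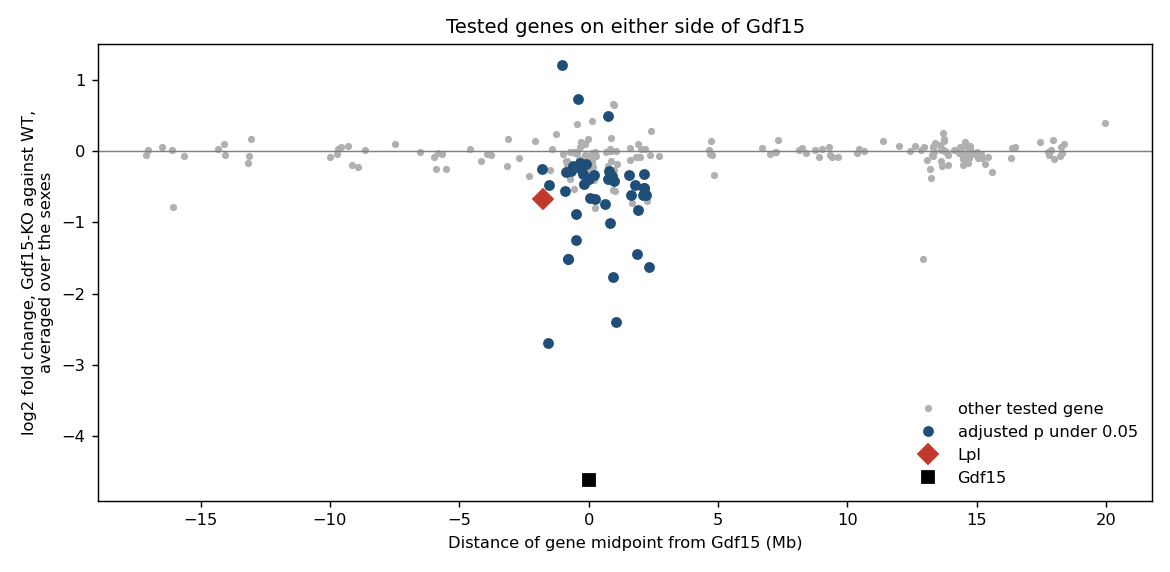
Log2 fold change in Gdf15-KO against WT mice averaged over the sexes (vertical axis) against the distance of each tested gene from Gdf15 in Mb (horizontal axis, negative on the side of Lpl), with called genes in blue. Lpl, the red diamond at -0.66, stands near the outer edge of a stretch of called genes that reaches 1.82 Mb on its side and 2.32 Mb on the other.

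The genes that help LPL through the endoplasmic reticulum did not differ detectably. Lmf1, which encodes a membrane protein that LPL needs to fold into its active form, had means of 26.0 to 28.2 CPM in the 4 groups and a range over all mice of 21.4 to 31.7 CPM. Its log2 fold change in Gdf15-KO against WT mice was -0.11 in females (interval -0.27 to 0.05, adjusted p = 0.624) and 0.03 in males (interval -0.13 to 0.19, adjusted p = 0.989). Sel1l, the adaptor of an endoplasmic reticulum degradation complex that also lets LPL leave that compartment, was the steadiest member. Its means were 153 to 161 CPM and its coefficient of variation within groups was 3.22% to 7.39%. The Sel1l log2 fold change was 0.05 in females (interval -0.06 to 0.16, adjusted p = 0.790) and 0.00 in males (interval -0.11 to 0.11, adjusted p = 0.999). The intervals of both genes thus leave out a change as large as that of Lpl.

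Partners of these proteins were followed as a list of 11 genes of protein folding and SEL1L-linked degradation, and 0 of 11 were called in Gdf15-KO against WT mice of either sex or on average. The value closest to the threshold on average was that of Derl1, a channel protein of the degradation complex, at 268 and 234 CPM in female WT and Gdf15-KO mice (averaged log2 -0.11, adjusted p = 0.538). Lmf2, a relative of Lmf1, followed with 0.06 (adjusted p = 0.578), then Hspa5, the chaperone BiP, with -0.07 (adjusted p = 0.580), and Edem1, which marks misfolded glycoproteins for degradation, with 0.09 (adjusted p = 0.592).

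Gpihbp1, the capillary anchor of LPL, did not differ by genotype but did by sex. It ran from 28.3 to 51.2 CPM (median 43.3) in female WT, from 30.8 to 54.0 (median 37.2) in female Gdf15-KO, from 51.0 to 67.7 (median 56.8) in male WT and from 46.3 to 80.4 (median 59.2) in male Gdf15-KO mice. WT and Gdf15-KO mice overlapped in both sexes. The log2 fold change of Gpihbp1 in Gdf15-KO against WT mice was -0.11 in females (interval -0.43 to 0.21, adjusted p = 0.848) and 0.08 in males (interval -0.24 to 0.40, adjusted p = 0.986).

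Between the sexes Gpihbp1 was lower in females, by -0.46 on the log2 scale in WT (SE 0.16, adjusted p = 0.0342) and by -0.65 in Gdf15-KO mice (SE 0.16, adjusted p = 0.00282). In each genotype 5 of 6 females lay below every male. In WT mice 2 of 7 members, Lpl and Gpihbp1, were called between the sexes, against 24.1% of all tested genes, and in Gdf15-KO mice 2 of 7, Gpihbp1 and Angptl4, against 32% of all tested genes, shares near those of genes at large. The WT call for Gpihbp1 was lost without female WT replicate 1, 2 or 5 or male WT replicate 3, 5 or 6 (adjusted p 0.0541 to 0.0847), with library totals only in place of TMM scaling (-0.42, adjusted p = 0.0601) and with the adipocyte score as a covariate (-0.33, adjusted p = 0.163).

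Endothelial markers moved along with Gpihbp1. Of 9 such markers, 4 were called lower in females than males in WT mice and 6 in Gdf15-KO mice, and 0 were higher. Of all tested genes, 9.12% were called lower in WT females and 14.3% in Gdf15-KO females. Their summed level was 758 to 943 CPM in female WT, 759 to 969 in female Gdf15-KO, 906 to 1047 in male WT and 951 to 1125 CPM in male Gdf15-KO mice. With the endothelium score (the mean log2 CPM of the 9 markers) as a covariate, the sex difference of Gpihbp1 was -0.05 in WT (adjusted p = 0.831) and -0.09 in Gdf15-KO mice (adjusted p = 0.739). This score itself differed by sex, with means of 6.17 in female and 6.40 in male WT mice, and 6.17 and 6.48 in Gdf15-KO mice. With it, calls between the sexes over all genes went from 3614 to 2375 in WT and from 4793 to 1990 in Gdf15-KO mice. Lost calls were thus not particular to Gpihbp1. The 3 genes whose levels followed Gpihbp1 most closely over the 24 mice, after group means were removed, were Esam, an adhesion molecule of endothelial junctions, Tinagl1, a matrix protein, and Kank3 (Pearson r = 0.87, 0.86 and 0.85). Esam is also 1 of the 9 markers, and all such values share the same libraries.

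Lpl, too, was lower in females than in males. In WT mice every female was below every male, a pattern shown in that direction by 3.1% of all tested genes, and the log2 difference was -0.40 (SE 0.14, adjusted p = 0.0418). In Gdf15-KO mice it was -0.33 (SE 0.14, adjusted p = 0.0790), with overlapping groups. The WT call was lost without female WT replicate 3 or 4 or male WT replicate 1, 3, 5 or 6 (adjusted p 0.0583 to 0.0856). It was also lost with no filter on low counts (adjusted p = 0.0554), with at least 10 counts required in every sample (0.0509) and with WT mice fitted alone (0.0653). With marker scores as covariates the WT log2 difference of Lpl was -0.21 for the adipocyte score (adjusted p = 0.151), -0.21 for the endothelium score (0.443), -0.39 for the macrophage score (0.0771) and 0.48 for the mammary score (0.893). In addition, 3 of 8 adipocyte markers were called lower in WT females than in WT males, against 9.12% of all tested genes.

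Angptl4, for the inhibitor of LPL, and Angptl8, for the modulator of ANGPTL4, varied more between mice than the other members in 3 of the 4 groups. Their coefficients of variation were 36.7% to 96.7% there. In male Gdf15-KO mice Angptl4 (35.3%) was again the most variable, but Angptl8 (27.3%) lay below Vldlr (28.4%). Angptl4 ran from 50.5 to 223 CPM (median 89.4) in female WT, from 59.1 to 134 (median 78.5) in female Gdf15-KO, from 80.0 to 237 (median 148) in male WT and from 138 to 350 CPM (median 202) in male Gdf15-KO mice. The genotypes overlapped in both sexes. Its log2 fold change in Gdf15-KO against WT mice was -0.30 in females (SE 0.34, interval -1.01 to 0.41, adjusted p = 0.795) and 0.52 in males (SE 0.34, interval -0.19 to 1.22, adjusted p = 0.942). The difference between these was -0.81 (interval -1.81 to 0.19, adjusted p = 0.998), and the female value was 0.05 without female WT replicate 4, the mouse with 223 CPM.

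Between the sexes, Angptl4 was lower in Gdf15-KO females than in Gdf15-KO males (log2 -1.29, SE 0.35, adjusted p = 0.00635), and every female lay below every male, against 4.68% of all tested genes lower without overlap. In WT mice the sex difference was -0.48 (SE 0.34, adjusted p = 0.332). With the endothelium score as a covariate the value in Gdf15-KO mice was -0.67 (adjusted p = 0.416). Cldn5, the claudin of endothelial tight junctions and 1 of the 9 endothelial markers, was also the gene most like Angptl4 over the 24 mice (r = 0.84), followed by Klf11, a transcription factor, and Harbi1 (r = 0.80 and 0.77).

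Angptl8 was the member with the widest spread and the largest difference by size. In female WT mice it ran from 9.10 to 93.5 CPM (median 20.7), and in female Gdf15-KO mice from 3.52 to 43.3 CPM (median 18.2). In male WT mice it ran from 13.5 to 56.0 CPM (median 26.9), and in male Gdf15-KO mice from 5.19 to 10.7 CPM (median 8.67). All 6 male Gdf15-KO mice were below all 6 male WT mice, as for 0.347% of tested genes in that direction, while the female groups overlapped.

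The male Angptl8 difference was -1.91 on the log2 scale (SE 0.63, interval -3.21 to -0.61), but its adjusted p in edgeR was 0.626 (unadjusted 0.0059) in the fit that shares the spread over all 4 groups. With males fitted alone it was called, at an adjusted p of 0.0476 in edgeR and 2.43e-06 in DESeq2, with values of -1.91 in both. The female difference was -0.60 (SE 0.60, interval -1.84 to 0.64, adjusted p = 0.758) and 0.09 without female WT replicate 2, the mouse with 93.5 CPM. The sexes did not differ detectably in the effect (1.31, interval -0.47 to 3.08, adjusted p = 0.998), and the average over the sexes was -1.25 (interval -2.15 to -0.36, adjusted p = 0.209). Angptl8 lies on chromosome 9 within Dock6, a gene on the opposite strand, and shares 0 exon bases with it. Dock6 had 66.3 to 72.3 CPM in the 4 groups and a log2 difference of -0.01 in males (adjusted p = 0.998).

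In female Gdf15-KO mice Angptl8 fell into a high and a low set. Replicates 13, 14 and 17 had 31.7 to 43.3 CPM of Angptl8 and 59.1 to 61.0 CPM of Angptl4, and replicates 15, 16 and 18 had 3.52 to 4.65 CPM of Angptl8 and 96.1 to 134 CPM of Angptl4. Over all 24 mice with group means removed, Angptl4 and Angptl8 had the lowest correlation of the 21 pairs of members (r = -0.40, rho = -0.30). Female WT replicates 1, 3 and 4 had 106 to 223 CPM of Angptl4 and 9.10 to 19.7 CPM of Angptl8. Replicates 2, 5 and 6 of that group had 50.5 to 73.3 and 21.7 to 93.5 CPM. The male groups did not show this opposition. In male WT mice replicates 3, 5 and 6 had 188 to 237 CPM of Angptl4 and 17.6 to 56.0 CPM of Angptl8. Male WT replicates 1, 2 and 4 had 80.0 to 108 and 13.5 to 39.0 CPM. Male Gdf15-KO replicate 15 was highest in both genes (350 and 10.7 CPM) and replicate 18 lowest in both (138 and 5.19 CPM). The food intake or feeding time of single mice is not given. The genes most like Angptl8 were Ppp1r3c, which targets a phosphatase to glycogen, and Bhlhe40, a transcriptional repressor of the clock (r = 0.89 and 0.86).

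**Figure D4:**
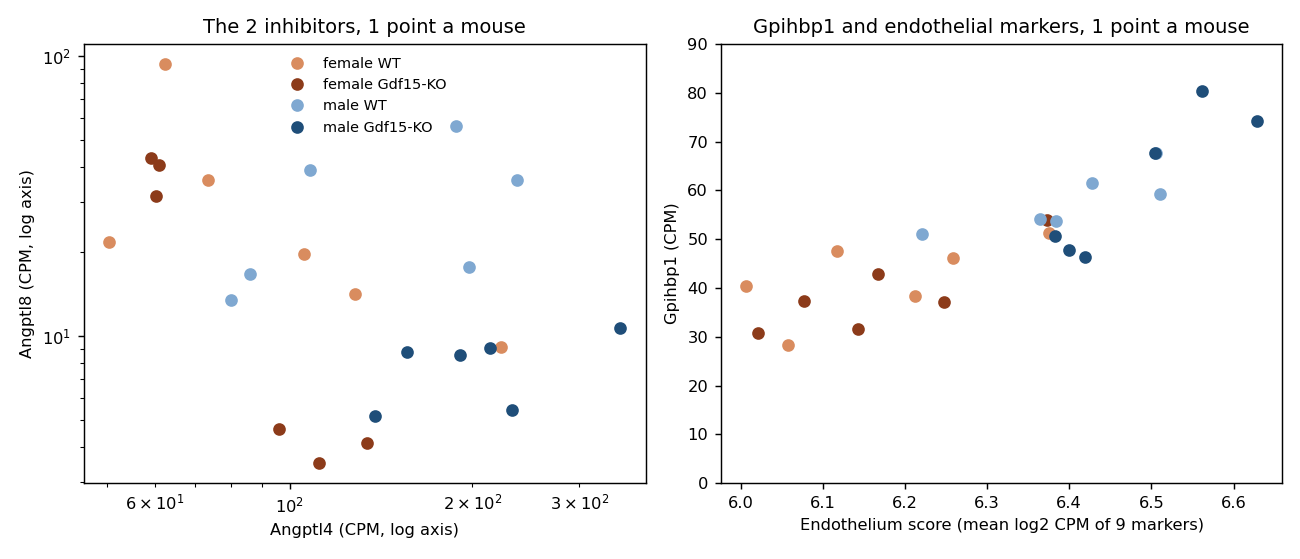
Left, Angptl8 against Angptl4 (CPM, log axes) and right, Gpihbp1 (CPM) against the endothelium score (mean log2 CPM of 9 markers), 1 point a mouse, coloured by group. The female Gdf15-KO mice form 2 sets on the left, male Gdf15-KO mice lie at 5.19 to 10.7 CPM of Angptl8, and Gpihbp1 is higher in mice with a higher endothelium score.

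Vldlr, the receptor that binds very low density lipoproteins near LPL, had means of 114 ± 19.3 CPM in female WT, 113 ± 19.7 in female Gdf15-KO, 142 ± 47.8 in male WT and 123 ± 34.8 CPM in male Gdf15-KO mice (SD, n = 6). The groups overlapped in each comparison. The log2 fold change of Vldlr in Gdf15-KO against WT mice was -0.01 in females (interval -0.41 to 0.39, adjusted p = 0.989) and -0.21 in males (interval -0.61 to 0.19, adjusted p = 0.955). Its closest genes were Zfyve9, Cep85l and Cfl2, a cofilin of muscle (r = 0.93 each). The skeletal muscle score was the mean log2 CPM of 9 markers. In each male group the mouse with the highest score also had the highest Vldlr, 222 CPM in WT and 181 CPM in Gdf15-KO mice. The female WT mouse with the lowest score had the lowest Vldlr of its group (91.2 CPM). Female Gdf15-KO replicate 13 had the highest score of its group but 104 CPM. The part of muscle in the Vldlr differences between mice was not tested. Of the 21 pairs of members, Vldlr and Sel1l had the highest correlation (r = 0.66, rho = 0.66), followed by Lpl and Sel1l (r = 0.62, rho = 0.44). The remaining closest genes were Slc22a3, an organic cation transporter, Rmc1 and the peroxisomal fatty acid transporter Abcd2 for Lpl (r = 0.86, 0.85 and 0.84). For Lmf1 they were Maged1, Hcfc1r1 and Rpn2 (r = 0.86, 0.86 and 0.83), and for Sel1l they were Dennd5a, Wwc2 and Herpud2 (r = 0.88, 0.88 and 0.87).

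Beyond the members, 57 genes of the same pathway were followed in 7 lists, and 55 of them were tested, without Apoc4 and Apoa5. In Gdf15-KO against WT mice 0 of 55 were called in females, in males or on average, beside 5, 2 and 7 genes at an unadjusted p under 0.05 (9.09%, 3.64% and 12.7% of the 55, against 10.9%, 5.47% and 12.6% of all tested genes). The median log2 fold change of the 55 genes was -0.06 in females and 0.01 in males, against 0.00 over all tested genes in either sex. The value with the smallest p was that of Slc27a1, a fatty acid transport protein that acts downstream of LPL. Slc27a1 had 1072 ± 237 CPM in female WT and 624 ± 163 CPM in female Gdf15-KO mice, and 728 ± 190 and 586 ± 149 CPM in male WT and Gdf15-KO mice (SD, n = 6), with an averaged log2 value of -0.55 (SE 0.14, adjusted p = 0.104).

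Of the 6 genes of fatty acid uptake, all 6 had negative averaged values, with a median of -0.20, and Slc27a1 near Gdf15 was among them. For Cd36 and Slc27a4, however, the averaged values were only -0.001 and -0.02. In males these 2 genes had positive values (0.06 and 0.05), and 4 of 6 were negative. Fabp5, a fatty acid binding protein, was -0.52 (adjusted p = 0.205), Acsl1, which activates fatty acids, -0.22 (adjusted p = 0.547), and Fabp4, the main fatty acid binding protein of adipocytes, -0.18 (adjusted p = 0.550). Among the circulating cofactors, Apoc3, an inhibitor of LPL made mostly in liver, was -0.77 (adjusted p = 0.220) at 0.790 to 1.72 CPM, and Apoc2, the activator of LPL, was -0.33 (adjusted p = 0.356) at 0.553 to 0.946 CPM. The transcription factor Pparg, which drives Lpl in adipocytes, was 0.15 (adjusted p = 0.604). Of the related lipases, Pnpla2, the first enzyme of lipolysis inside the adipocyte, was -0.11 (adjusted p = 0.668), and Lipa, the lysosomal lipase, was 0.09 (adjusted p = 0.603).

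Between the sexes 24.1% of all tested genes were called in WT and 32% in Gdf15-KO mice, and the same lists held calls too. Females exceeded males for 6 of 55 genes in WT and 5 of 55 in Gdf15-KO mice, where 15% and 17.7% of all tested genes did so. They were lower for 8 and 14 of 55 genes, against 9.12% and 14.3% of all tested genes. Lsr, a lipoprotein receptor of epithelia and liver, was 2.49 higher on the log2 scale in WT females (26.3 against 4.68 CPM, adjusted p = 6.63e-11), and Sdc1, a heparan sulfate proteoglycan, 1.30 higher (adjusted p = 1.88e-06). Mammary and epithelial markers were also higher in females for 10 of 10 genes in both genotypes, and their part in these values was not tested. Apoc1 and Apoe, apolipoproteins that macrophages make too, were lower in WT females (log2 -0.97, adjusted p = 1.07e-06, and -0.74, adjusted p = 0.000248). Cd36 and Fabp4, which take up and bind fatty acids, were lower as well (-0.37, adjusted p = 0.0364, and -0.50, adjusted p = 0.0285), while Slc27a1 was higher (0.56, adjusted p = 0.0475). Sorl1, a sorting receptor that directs LPL to lysosomes, was higher in females of both genotypes (0.63 in WT, adjusted p = 0.00191, and 0.74 in Gdf15-KO mice, adjusted p = 0.000344).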

How the data were processed

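sWAT RNA from 24 mice was sequenced by BGI as paired reads. The authors' expected counts per gene were made with RSEM 1.2.8 from Bowtie2 2.2.5 alignments against GRCm39 (the versions also stand in the submitters' processing notes). These deposited expected counts were used here. Of the values, 5.07% had decimals and were rounded. Every value column had a sample. Strand was not given in the sources used here.

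Low genes were dropped by filterByExpr, using groups, a count of 10 and a total of 15. The quasi-likelihood test of edgeR 4.0.16 under R 4.3.3 was applied after TMM scaling, with 1 mean per group. p-values were adjusted by Benjamini-Hochberg over all 14982 genes tested, with a call at under 0.05. Log2 CPM used a prior count of 2. Positions and exon lengths came from GENCODE for GRCm39. The members and gene lists were chosen with earlier results of these data known. Named genes were the members, up to 4 genes of each pathway list with the smallest p in the averaged genotype and the WT sex comparison (a selection of these is printed), called genes within 1 Mb of Lpl, and the 3 genes most correlated with each member among those with a mean of at least 1 CPM (1 of these is not reported here). Dock6, Nwd1, the brown adipocyte markers and the sex values in Gdf15-KO mice were named after values were seen.

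The alternatives were RLE, upper quartile or no scaling, other filters, DESeq2 1.42.0 and limma 3.58.1 (voom), fits of 2 groups alone, 5 marker scores as covariates, a block by replicate number and leaving out each mouse. The procedure was tested on simulated data. Same-numbered females and males were not taken as pairs, since the correlation of their deviations ran from -0.56 to 0.396 over 12 pairs, with 9 but not all above 0.1, and no source says what a number marks.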

Additional observations from a re-analysis of the deposited data

Results flagged for a closer look

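Over the 28 groups of 6 mice checked (7 members in 4 groups), 3 mice stood apart by Dixon's test with a critical value of 0.625, which chance passes in about 1 of 20 groups. Lpl was 3116 CPM in female WT replicate 4, with the others at 5290 to 5958 CPM (gap over range 0.765). Angptl8 was 93.5 CPM in female WT replicate 2, with the others at 9.10 to 36.1 CPM (0.680). Sel1l was 171 CPM in male Gdf15-KO replicate 15, with the others at 144 to 153 CPM (0.673).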

How the results depend on the processing

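The averaged Lpl difference was called under each alternative run. Of 1253 values of the 42 member results under the alternatives, 1142 kept direction and side of the threshold, 36 lost and 15 gained a call, and 60 turned sign, of which 1, the WT sex difference of Lpl, had been called. No alternative moved the median of all genes by over 0.1. The cause of each change below was not tested. In females 1 member, Lpl, was called with DESeq2 (1 fit or females alone), with the adipocyte or the mammary score as covariate, against 0. In males DESeq2 on males alone called 2 members, against 1. Leaving out single mice gave 0 to 1 called members in females and in males, and 0 to 2 between the sexes in WT mice, against 2. Between the sexes in WT mice 1 member was called with library totals only (Lpl), no filter, 10 counts in every sample, WT mice fitted alone or the macrophage score as covariate (Gpihbp1 in each), or the adipocyte score (Lmf1, 0.207, adjusted p = 0.0343, not called otherwise), and 0 with the endothelium or mammary score. In Gdf15-KO mice 0 were called with either of these 2 scores, against 2. The mammary score separates the sexes without overlap, and with it 13 and 6 genes in all were called between them.

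Values that turned sign were, with library totals only, Vldlr in females (0.079), Gpihbp1 and Lmf1 on average (0.042 and 0.026) and Lmf1 between the sexes in Gdf15-KO mice (0.054). With no filter, Sel1l in males was 0.000, with males fitted alone -0.003. With the adipocyte score, Vldlr in females was 0.044, and between the sexes in Gdf15-KO mice Lmf1 was 0.098 and Vldlr 0.082. With the endothelium score, Gpihbp1 and Sel1l in males were -0.084 and -0.008, Angptl4 and Angptl8 between the sexes in WT mice 0.019 and -0.047, and Lmf1 in Gdf15-KO mice 0.004. With the mammary score, Lmf1 in males was -0.004, Lpl, Vldlr and Sel1l between the sexes in WT mice 0.484, 0.637 and -0.076, and Lpl, Lmf1, Vldlr and Sel1l in Gdf15-KO mice 0.651, 0.299, 0.922 and -0.038. With the macrophage score, Sel1l in males was -0.010, Angptl8 in WT mice -0.049, and Lmf1 and Vldlr in Gdf15-KO mice 0.024 and 0.094. With limma-voom, Angptl8 between the sexes in WT mice was -0.137.

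Leaving out single mice turned the sign of uncalled values with these ranges. In females Vldlr ran from -0.065 to 0.071, Angptl8 from -0.934 to 0.092 and Angptl4 from -0.463 to 0.054. In males Sel1l ran from -0.024 to 0.022, Gpihbp1 from -0.006 to 0.149 and Lmf1 from -0.017 to 0.065. The average of Gpihbp1 ran from -0.074 to 0.023, and the difference of the Lpl effect between the sexes from -0.039 to 0.167. Between the sexes Angptl8 ran from -0.574 to 0.394 and Sel1l from -0.007 to 0.058 in WT mice, and Lmf1 from -0.066 to 0.025 and Vldlr from -0.183 to 0.022 in Gdf15-KO mice.

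With the replicate number as a block, 2 members were called between the sexes in either genotype, 0 for the difference of the effects, and the Angptl8 sex difference in WT mice was -0.222. For 4 of 12 females, the best correlated of the 6 males of the same genotype had the female's own number. No paired analysis was possible because the numbers of WT (1 to 6) and Gdf15-KO mice (13 to 18) differ, for the genotype comparisons. Fits of 2 groups alone give no value for the averaged comparison or the difference. Gdf15, with 0 to 31 counts, is limited most by depth. Angptl8 had 86 to 2096 counts, and within groups its highest mouse had 2.05 to 12.3 times the level of its lowest.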
